A study of Mus musculus with 12 samples.

Results

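The genes of oxidative phosphorylation, the process by which mitochondria turn the energy of food into ATP, were examined complex by complex in mouse skeletal muscle. They were chosen by symbol: every gene on the array whose name starts with Nduf, Sdh, Uqcr, Cox4 to Cox8 or Atp5, the gene Cyc1, and the protein-coding genes of the mitochondrial genome. The array carried 151 probes for 100 such genes, and 93 of them, with 130 probes, were detected well enough to be tested, out of 9034 named genes tested in all. Of the 93, 72 encode nuclear subunits (33 of complex I, 3 of complex II, 7 of complex III, 13 of complex IV and 16 of complex V), 8 lie on the mitochondrial genome, and 13 carry such a symbol but encode no subunit.

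The muscle was the gastrocnemius, the large calf muscle, of 12 male C57BL/6J mice without any genetic alteration named in the labels, aged 10 to 12 weeks and weighing 22 to 26 g. All 12 carried a temperature transmitter and had been through a heat test, in which the chamber was brought to 39.5°C for at most 3 h, and the muscle was taken on the following day. The 6 mice whose core temperature stayed lower in that test were labelled heat tolerant (TOL). The 6 whose temperature rose further were labelled heat intolerant (INT). Other mice tested, which the authors classed as moderately tolerant, are not included here. The groups were thus formed by the response to heat and leave out the mice in between. No unheated mice are included here, and a difference that preceded the test cannot be told apart from one that followed it. Mice of both groups carried the numbers 3, 4, 5, 7, 9 and 11. RNA of each mouse was measured on its own Illumina MouseWG-6 v2 BeadChip array.

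In oxidative phosphorylation, complex I takes electrons from NADH and complex II from succinate, complex III passes them through cytochrome c to complex IV, and complex IV hands them to oxygen. Complexes I, III and IV pump protons across the inner mitochondrial membrane, and complex V, the ATP synthase, makes ATP as the protons flow back. All of the complexes except complex II combine nuclear subunits with subunits encoded by mitochondrial DNA. Skeletal muscle depends on this system during sustained work, and slow-twitch and oxidative fibres hold more mitochondria than fast glycolytic fibres.

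The question was whether the transcripts of any complex, nuclear or mitochondrial, stood at another level in TOL mice than in INT mice. Values are log2 intensities after background correction, an added offset of 16 (4 on the log2 scale, near which a dim probe sits) and quantile normalization, and a difference is the mean of the TOL mice minus the mean of the INT mice. The p-values are from limma, adjusted by Benjamini-Hochberg over all 15570 probes tested, and exact two-sided permutation tests over the 924 ways to divide the 12 mice 6 and 6 accompany the genes given in full, where the smallest p possible is 0.00216. A gene with several probes is given by its brightest one. In whole muscle, fewer cells of a type and less RNA per cell cannot be told apart.

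After adjustment 0 of the 93 genes were under 0.05, whereas 49 of all 9034 genes were (0.542%), and the smallest adjusted p among the 93 was 0.345, for Ndufb10. Before adjustment the limit of 0.05 was met by 5 of the 93 with higher levels in TOL mice (3.89% of all genes met it) and by 3 with lower levels (4.53% of all genes met it), shares near those over the whole array. These 8 genes are called nominal below. Over 23 other settings, 12 of which left out 1 mouse, Ndufb10, Sdhaf1 and Ndufaf4 met 0.05 before adjustment in all, Atp5c1 and ND6 in 22, Ndufaf7 in 18, Ndufb11 in 13 and Ndufs3 in 8. In none of the 93 were the TOL and INT mice fully separated, against 0.708% of all genes. The median log2 difference was 0.0047 over the 93 genes and -0.0034 over all genes.

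The intervals were narrow enough to bound most of these differences. The 95% confidence interval of the difference lay within 1.25-fold in either direction for 66 of the 93 genes (71.0%, against 56.0% of all genes), and within 1.5-fold for 91 of them (97.8%, against 94.0% of all genes). The exceptions to the wider bound were ND5 and ND6, both mitochondrial. With the main processing, every one of the 72 nuclear subunits differed by less than 1.25-fold between the group means. Other settings took some of them past that bound. Atp5c1 was at -0.36 on the log2 scale when the arrays were scaled to a common median. With an RMA-type background correction the dim genes Ndufb11 and Cox4i2 were at 0.42 and 0.33. The median standard error was 0.09 for the 93 genes and 0.10 for all genes on the log2 scale.

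**Figure D1:**
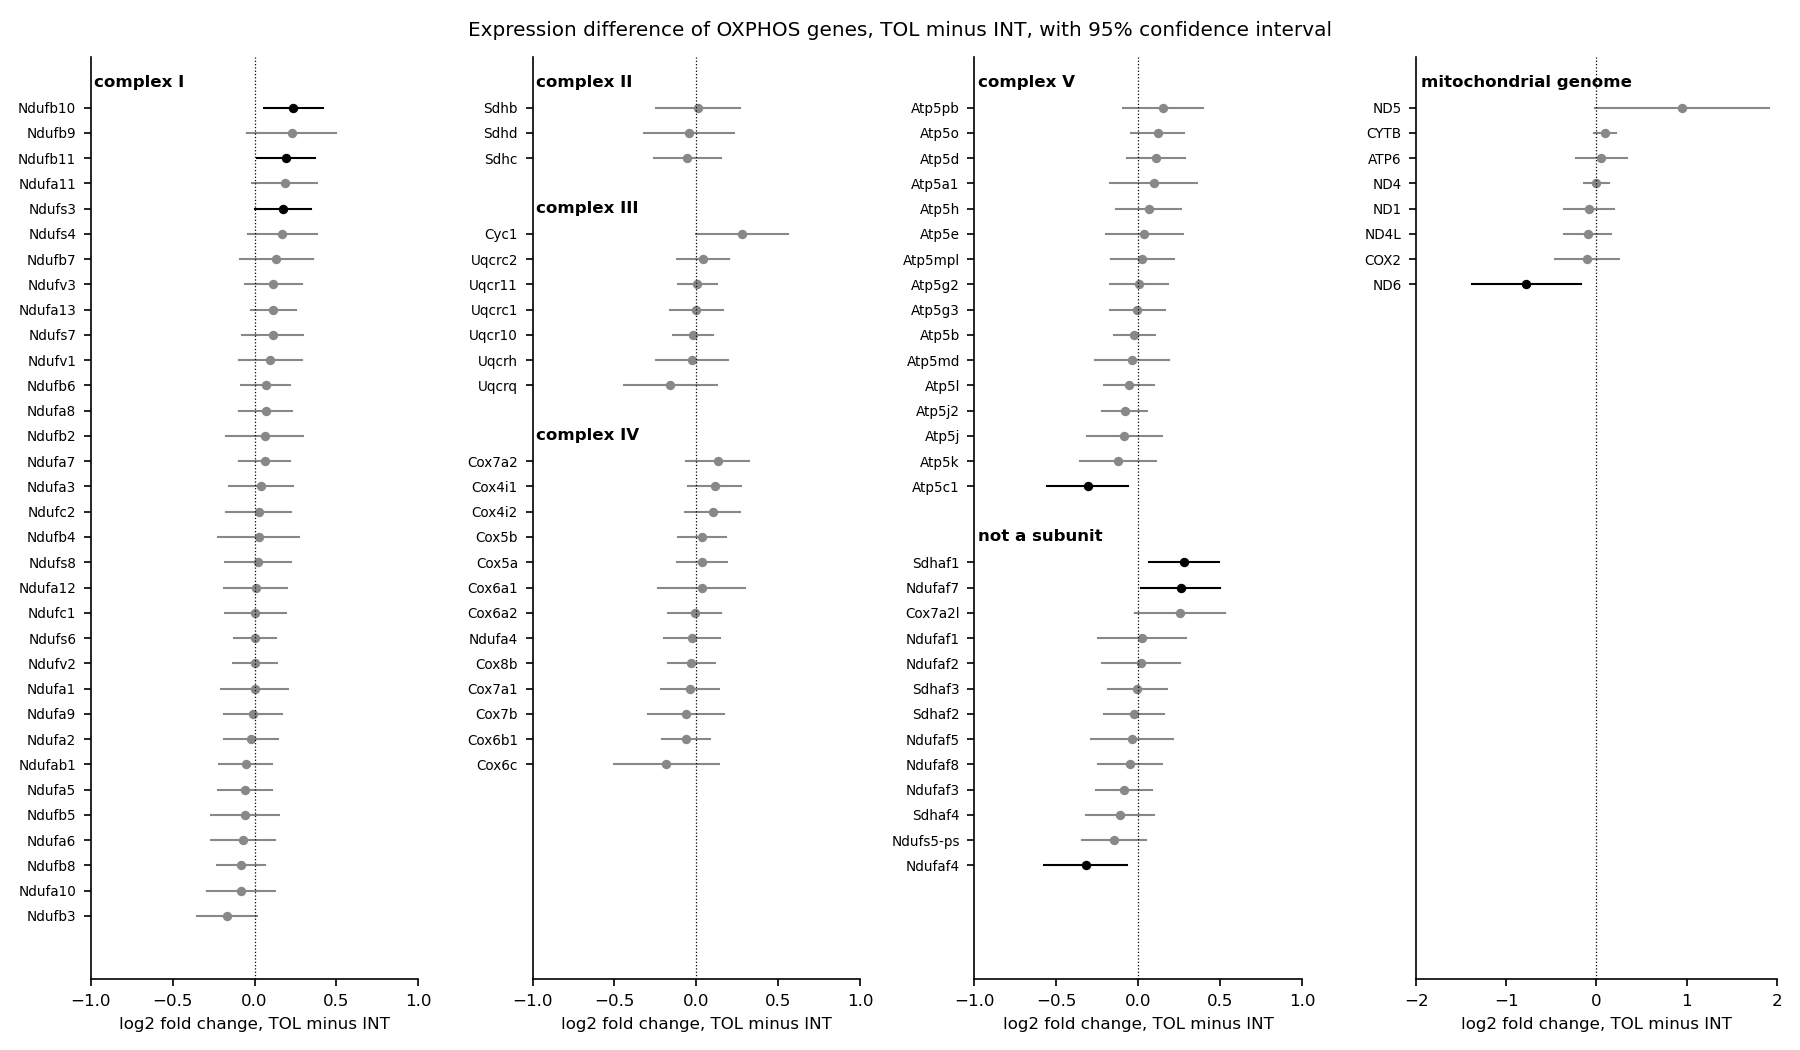
Each point is the log2 difference of 1 gene, TOL minus INT (x axis), with its 95% confidence interval as a line, and genes are grouped by complex. Black marks the 8 nominal genes, which met 0.05 before adjustment, the mitochondrial panel has a wider axis, and the intervals of ND5 and ND6 are the broadest shown.

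In complex I, the entry point for electrons from NADH, 3 of the 33 nuclear genes were nominal. All 3 had higher levels in TOL mice, a limit that 3.89% of all genes met. Of its 33 nuclear genes 24 had a positive difference (72.7%, against 48.9% of all genes) with a median of 0.02, but only 16 of 33 did, with a median of -0.0029, when the arrays were scaled to a common median instead of quantile normalized. The differences ran from -0.17 for Ndufb3 to 0.24 for Ndufb10.

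Ndufb10 encodes an accessory subunit of the membrane arm of complex I. Its log2 intensity was 8.48 in the lowest, 8.61 in the median and 8.80 in the highest INT mouse, and 8.71, 8.83 and 8.99 in the TOL mice. All 6 TOL mice were above the INT mean, and the groups overlapped through INT mouse 3, the highest of its group, which lay above TOL mice 3 and 5. The difference was 0.24 (SE 0.09, adjusted p = 0.345 by limma, exact permutation p = 0.00649). The other tested probe of the gene differed by 0.20.

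Ndufs3 and Ndufb11 also stood above their INT levels without passing the adjusted threshold. Ndufs3, a core subunit of the matrix arm, had lowest, median and highest values of 10.14, 10.36 and 10.46 in INT mice and of 10.32, 10.51 and 10.65 in TOL mice. All TOL mice except mouse 3 were above every INT mouse. The difference was 0.17 (SE 0.08, adjusted p = 0.499, exact permutation p = 0.0303), and the gene was not nominal with median scaling, no background correction, an offset of 50, no filter on dim probes, array weights or the mouse number as a block. Ndufb11, another accessory subunit of the membrane arm, was dim, at 4.53, 4.66 and 4.97 in INT mice and 4.72, 4.93 and 4.94 in TOL mice, and differed by 0.19 (SE 0.08, adjusted p = 0.467, exact permutation p = 0.0368). Its values lie close to the offset, where the size of a difference depends on the background correction: it was 0.42 with an RMA-type background correction and 0.06 with no background correction, and when the authors' processed table was used with values under 16 set to 16, every array was at 16.

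The core subunits of complex I, which carry out electron transfer, were represented by 5 of the nuclear-encoded genes. All 5 had positive differences. Ndufs7 and Ndufv1 differed by 0.11 and 0.10, and Ndufs8 and Ndufv2 by 0.02 and 0.0019, with standard errors from 0.06 to 0.10 over the 5 genes. With median scaling Ndufs8 was at -0.01 and Ndufv2 at -0.06. Ndufs1 was detected on 2 of 12 arrays and was left out of the test. The 28 accessory genes had a median difference of 0.02, with 19 above 0.

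Ndufs4, an accessory subunit whose loss in mice causes an early encephalopathy, shows how close the groups were even where every TOL mouse lay on one side. All 6 TOL mice were above the INT mean, but the difference was 0.17 (SE 0.10, exact permutation p = 0.152). INT mouse 3 had the lowest value, 10.68, and without that mouse the difference was 0.09.

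Complex II, which is also an enzyme of the citrate cycle, has only nuclear subunits. Sdhb, its iron-sulfur subunit, had lowest, median and highest values of 9.43, 9.75 and 9.98 in INT mice and 9.38, 9.75 and 10.08 in TOL mice. The difference was 0.0092 (SE 0.12). The membrane anchors Sdhc and Sdhd differed by -0.06 (SE 0.10) and -0.05 (SE 0.13), and none of the 3 was near the threshold (smallest adjusted p = 0.901). The probe for Sdha, the flavin subunit, was detected on 0 arrays, so the largest subunit of the complex was not tested.

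In complex III, Cyc1 had the largest difference of the 7 genes. It encodes cytochrome c1, the subunit that passes electrons on to cytochrome c. INT mice lay tightly together, at 10.14, 10.32 and 10.43 for the lowest, median and highest, whereas TOL mice spread from 10.08 over 10.60 to 11.03. TOL mice 4, 9 and 11, at 10.78, 10.87 and 11.03, were above every INT mouse, and TOL mouse 5 was below every INT mouse. The difference was 0.28 (SE 0.13, adjusted p = 0.508, exact permutation p = 0.104).

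The other 6 genes of complex III had smaller differences. The core proteins Uqcrc1 and Uqcrc2 differed by -0.0013 (SE 0.08) and 0.04 (SE 0.08). Uqcrq, a small subunit whose values lay near the offset, had a difference of -0.16 (SE 0.14) and, like Cyc1, spread more widely in TOL mice (5.04 to 5.93) than in INT mice (5.49 to 6.02). The median of the 7 genes was -0.0013, and the probes of the Rieske iron-sulfur protein gene Uqcrfs1 were detected on 1 and 4 arrays and were not tested.

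In complex IV, cytochrome c oxidase, 0 of the 13 nuclear genes were nominal. Of all genes, 3.89% met that limit with higher and 4.53% with lower levels in TOL mice. With so few genes, a count of 0 says little about the complex. The median difference in complex IV was -0.01. Several of its subunits exist in pairs, a general form and a form found in heart and skeletal muscle. The muscle forms Cox6a2, Cox7a1 and Cox8b differed by -0.01 (SE 0.08), -0.04 (SE 0.08) and -0.03 (SE 0.07). The general forms Cox6a1 and Cox7a2 differed by 0.03 (SE 0.13) and 0.13 (SE 0.09). Neither form of either pair was separated between the groups.

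Cox6a2, one of the brightest members, illustrates the precision reached for a bright probe. Its values were 13.21, 13.35 and 13.51 in INT mice and 13.05, 13.37 and 13.47 in TOL mice. Only TOL mouse 5 lay outside the INT range. Its 95% confidence interval ran from -0.17 to 0.15 on the log2 scale, and the exact permutation p was 0.89.

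The largest difference in complex IV was that of Cox6c, a small nuclear subunit, at -0.18 (SE 0.15, adjusted p = 0.749, exact permutation p = 0.34). Its values were 10.64, 10.96 and 11.14 in INT mice and 10.16, 10.87 and 11.17 in TOL mice, so the TOL mice held both ends of the range. Cox7b differed by -0.06 (SE 0.11). Cox4i1, the general form of subunit 4, differed by 0.11 (SE 0.08), and Cox4i2, a form known from lung that was dim here, by 0.10 (SE 0.08). Cox5a, Cox5b and Cox6b1 differed by 0.03, 0.03 and -0.07, and Ndufa4, once assigned to complex I and now counted with complex IV, by -0.03. Cox6b2, Cox7b2 and Cox8c, forms known from testis, were detected on 3, 0 and 0 arrays at most and were not tested.

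In complex V, Atp5c1 stood apart from the rest. It encodes the gamma subunit, the central shaft that turns inside the catalytic head of ATP synthase. Its values were 11.80, 12.09 and 12.13 in INT mice and 11.30, 11.76 and 12.03 in TOL mice. TOL mice 4, 5 and 7 were below every INT mouse, and TOL mice 3, 9 and 11 lay within the INT range. The difference was -0.31 (SE 0.12, adjusted p = 0.369, exact permutation p = 0.0411), a value that stayed between -0.37 and -0.23 when any 1 mouse was left out.

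The subunits that surround this shaft did not differ in the same way. Atp5a1 and Atp5b, the alpha and beta subunits of the catalytic head, differed by 0.09 (SE 0.13) and -0.02 (SE 0.06). Atp5o and Atp5pb, of the stalk that holds the head in place, differed by 0.12 (SE 0.08) and 0.15 (SE 0.12). Atp5g2 and Atp5g3, which encode the same mature subunit of the rotating ring, differed by 0.0047 (SE 0.08) and -0.0051 (SE 0.08). Of the 16 genes of complex V, 8 lay above 0 and 8 below, with a median of -0.00016 (0.0070 with median scaling).

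**Figure D2:**
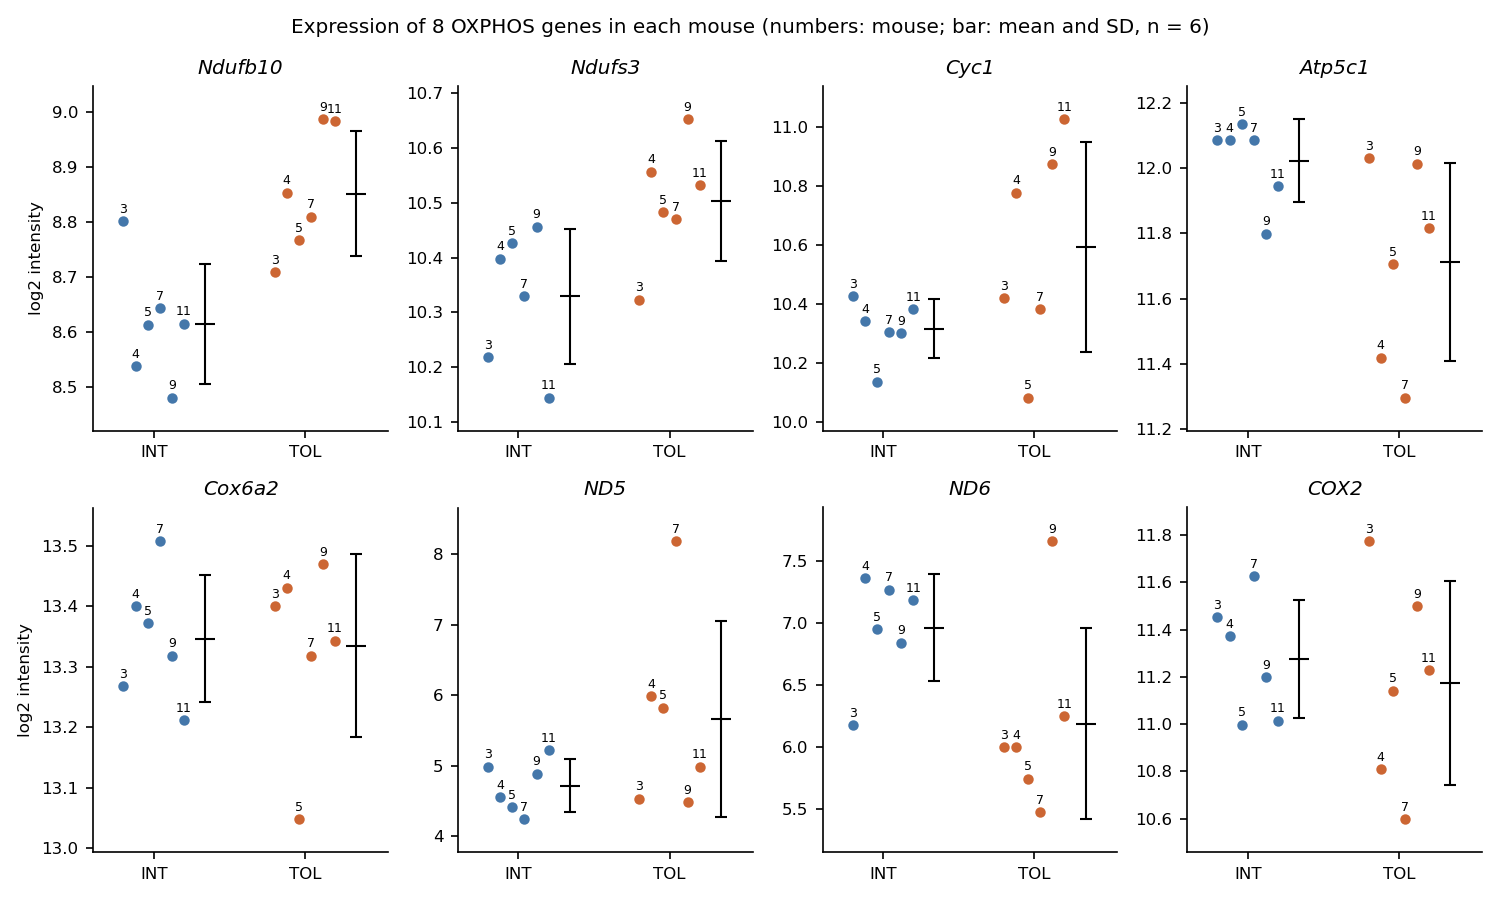
Log2 intensity (y axis, a different range in each panel) of 8 OXPHOS genes, each point 1 mouse with its number, with the mean and SD (n = 6) beside each group. The TOL and INT mice overlap in every panel, TOL mouse 7 is the highest for ND5 at 8.19, and TOL mouse 9 is the highest for ND6 at 7.66.

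The mitochondrial genome encodes 13 proteins of the system, and 8 of these genes had probes here, all of which were tested. Their median difference was -0.04, with 3 above 0 and 5 below. For 6 of them the difference lay between -0.10 and 0.10. ND4 and CYTB gave the narrowest intervals: ND4, a proton-pumping subunit of complex I, differed by -0.0013 (SE 0.07), and CYTB, the cytochrome b of complex III, by 0.10 (SE 0.06, adjusted p = 0.619, exact permutation p = 0.0281).

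ND5 and ND6, which lie next to each other and are read from opposite strands, were the most variable members and differed in opposite directions. Their reading frames overlap by 14 bases. ND5 is the largest mitochondrial-encoded subunit of complex I. Its values were 4.24, 4.72 and 5.22 in INT mice and 4.48, 5.40 and 8.19 in TOL mice. Its probe was dim, with the INT values close to the offset (4 on the log2 scale), and was detected on 11 arrays. At this level the size of a difference depends on the background correction, here from 0.50 with none to 1.48 with an RMA-type one. TOL mice 4, 5 and 7 were above every INT mouse, and TOL mouse 7, at 8.19, was more than 2 log2 units above the next, TOL mouse 4 at 5.99. The difference was 0.95 (SE 0.46, adjusted p = 0.517, exact permutation p = 0.104), and without TOL mouse 7 it was 0.45.

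ND6 is the only protein encoded on the light strand. Its values were 6.17, 7.07 and 7.36 in INT mice and 5.47, 6.00 and 7.66 in TOL mice. TOL mice 3, 4, 5 and 7 were below every INT mouse, TOL mouse 11 was between INT mouse 3 and the other INT mice, and TOL mouse 9 was the highest of all 12. The difference was -0.78 (SE 0.29, adjusted p = 0.353, exact permutation p = 0.0628). Without TOL mouse 9 it was -1.07, with an adjusted p of 0.0128 by limma, so 1 mouse decided whether the gene passed. No other single mouse left out gave any of the 93 genes an adjusted p under 0.05.

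TOL mouse 7, which was highest for ND5 and lowest for ND6, was also the lowest of the 12 for COX2 and ND1, the genes of a catalytic subunit of complex IV and of a membrane subunit of complex I. The same mouse was lowest for the nuclear genes Atp5c1 (11.30) and Cox6c (10.16), but highest for the nuclear genes Ndufv1 (11.89) and Ndufa10 (11.55). Over the 80 nuclear and mitochondrial subunit genes it was lowest in 13 (16.2%, against 11% of all genes). It was highest in 5 of them (6.25%, against 8.38% of all genes). Its mean deviation over the 72 nuclear subunits was -0.02. COX2 ranged from 10.998 over 11.28 to 11.63 in INT mice and from 10.60 over 11.19 to 11.78 in TOL mice, so the TOL mice held both ends of the range. ND1 was 11.76 in TOL mouse 7 and had its TOL median at 12.55 and its INT median at 12.50. The differences were -0.10 (SE 0.17) for COX2 and -0.08 (SE 0.13) for ND1, and without TOL mouse 7 both turned slightly positive, at 0.01 and 0.05. ATP6, a subunit of complex V, differed by 0.06 (SE 0.13) and ND4L by -0.10 (SE 0.12). The SD was larger among TOL mice in 7 of the 8 mitochondrial genes, compared with 55.7% of all genes, a difference in spread that was not tested.

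**Figure D3:**
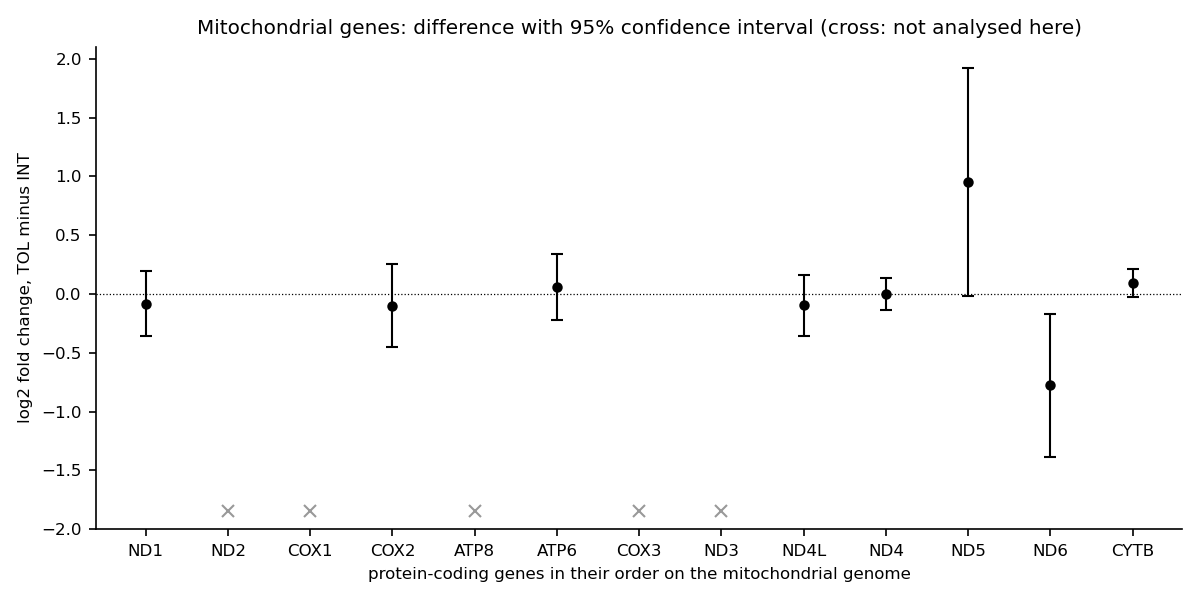
Log2 difference, TOL minus INT (y axis), of the 8 tested mitochondrial genes with 95% confidence intervals, in the order of the genes on the mitochondrial genome (x axis). ND5 at 0.95 and its neighbour ND6 at -0.78 lie on opposite sides of 0, and the other 6 lie between -0.10 and 0.10. The probe of ND5 was dim, with INT values close to the offset.

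Some mice stood high or low in several complexes together. The mean deviation of the 72 nuclear subunits from the mean of all 12 mice ran from -0.08 in TOL mouse 5 to 0.09 in TOL mouse 9. The group means were -0.01 for INT and 0.01 for TOL. A range over single mice and a gap between means of 6 mice are unlike measures and are not compared here. TOL mouse 9 had the highest value of the 12 in 24 of the 80 subunit genes (30.0%), whereas it was highest in 10.2% of all genes. The same mouse was highest for the 2 erythrocyte genes tested, at a mean deviation of 0.86, and stood at 0.42 for slow-twitch markers, and the part of either in its OXPHOS levels was not tested. TOL mouse 5 was lowest in 12 of them (against 6.94% of all genes), most clearly in complex III, where its mean deviation was -0.20. TOL mouse 7 was lowest in 13 (16.2%, against 11% of all genes). Among INT mice, mouse 4 was highest in 10 (12.5%, against 5.88% of all genes) and mouse 9 had the lowest nuclear mean, at -0.06.

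**Figure D4:**
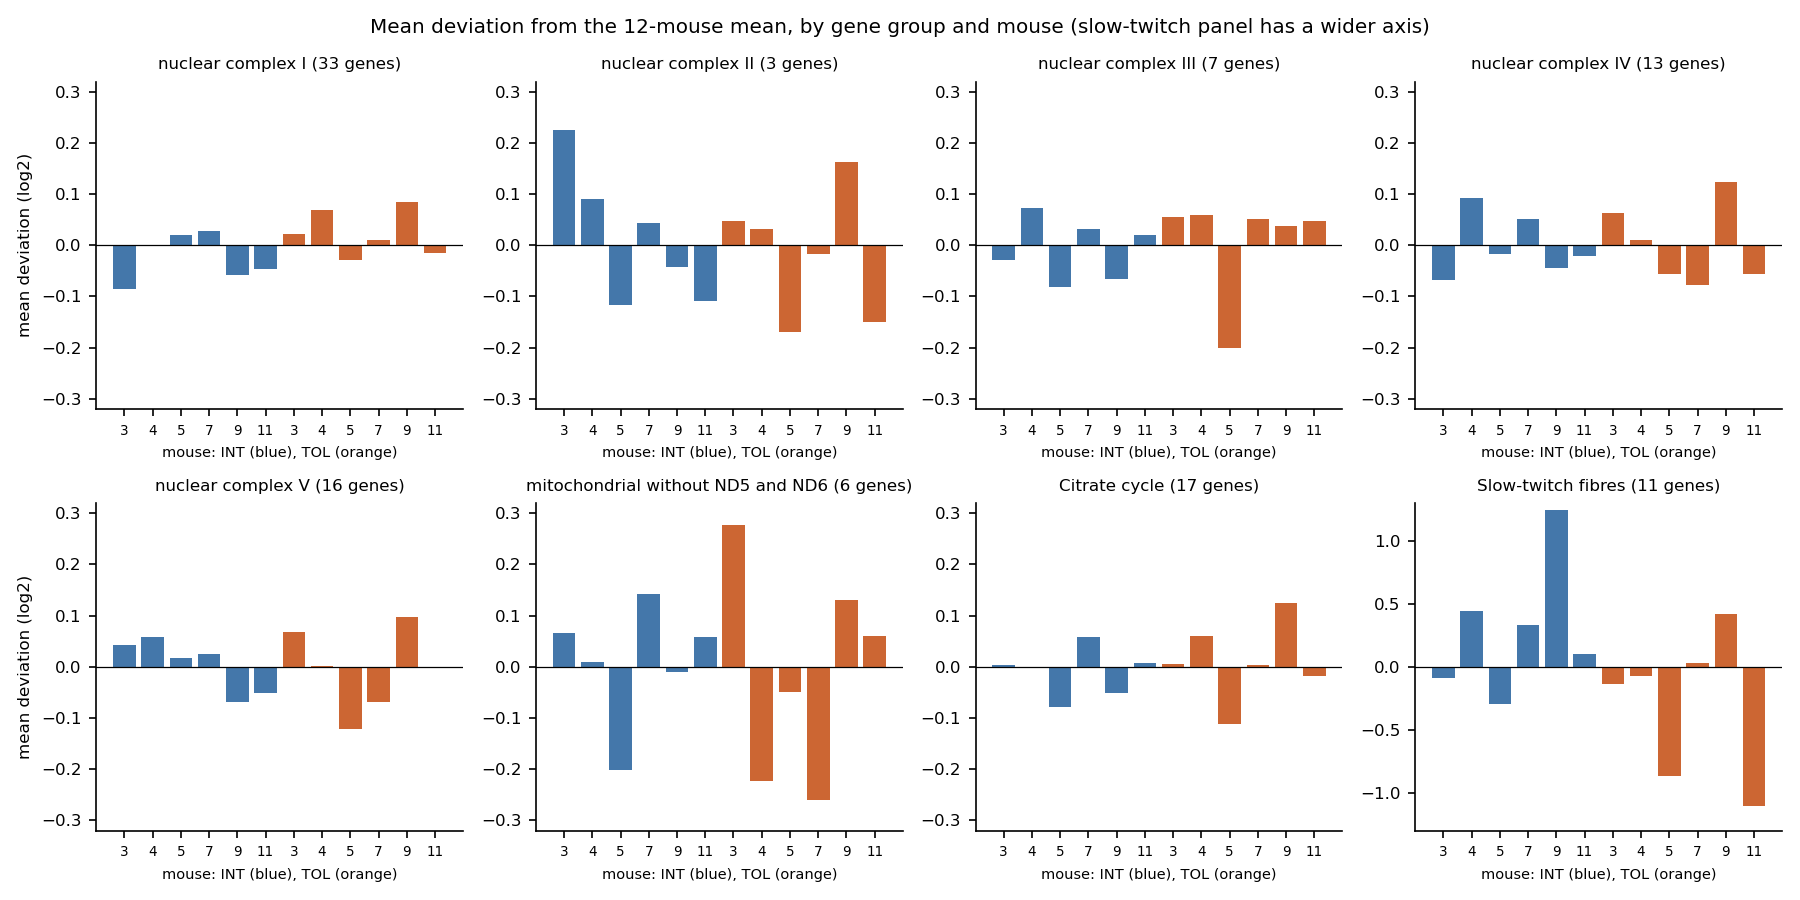
Mean deviation of each gene group from the 12-mouse mean on the log2 scale (y axis) in each mouse (x axis, blue INT and orange TOL). The nuclear complexes stay within 0.23 of 0 in every mouse, while the slow-twitch markers, drawn on a wider axis, run from -1.11 in TOL mouse 11 to 1.24 in INT mouse 9.

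Slow-twitch markers varied far more between the mice. The tissue label fitted its markers, since all 7 skeletal muscle genes listed were detected and tested, with a median difference of -0.0024. Of 11 slow-twitch genes 10 had negative differences, under both scalings, with a median of -0.64, and 7 of the 10 met 0.05 before (4.53% of all genes did) and 0 after adjustment. The mean deviation of the list ran from -0.30 to 1.24 in INT mice and from -1.11 to 0.42 in TOL mice. The exception was Mb, the oxygen store of oxidative fibres, at 0.25 (SE 0.09), which met 0.05 before adjustment in the other direction (3.89% of all genes did). The slow-twitch mean and the nuclear OXPHOS mean lay on the same side of 0 in 7 of the 12 mice and on opposite sides in 5. INT mouse 4 (0.44 and 0.04), INT mouse 7 (0.33 and 0.03) and TOL mouse 9 (0.42 and 0.09) were above 0 in both and TOL mouse 5 (-0.87 and -0.08) was below 0 in both, whereas INT mouse 9 was at 1.24 and -0.06. The part of fibre type in the OXPHOS levels was not tested. Fast-twitch genes had a median difference of 0.03, and the mean deviation of their list ran from -0.14 to 0.10 over the mice. Of the brown adipocyte list, whose defining gene Ucp1 was not detected well enough to be tested, the members Cox8b and Cox7a1 are also muscle genes.

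The symbol rule took in 13 genes that are not subunits, and these held 3 of the 8 nominal genes. Of the 13, 2 were nominal with higher levels in TOL mice (3.89% of all genes met that limit). With lower levels 1 was (4.53% of all genes met it), and counts this small say little about the class. Sdhaf1, which helps insert iron-sulfur clusters into complex II, had values of 7.12, 7.20 and 7.60 in INT mice and 7.43, 7.55 and 7.74 in TOL mice. All TOL mice were above the INT mean, and INT mice 5 and 7 overlapped with them. The difference was 0.28 (SE 0.10, adjusted p = 0.347, exact permutation p = 0.0173), and the other tested probe differed by 0.23.

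Assembly factors of complex I had differences of both signs, none of which passed the adjusted threshold. Ndufaf4 had values of 9.37, 9.54 and 9.91 in INT mice and 9.03, 9.33 and 9.51 in TOL mice, and all TOL mice were below the INT mean. The difference was -0.32 (SE 0.12, adjusted p = 0.362, exact permutation p = 0.0541). Ndufaf7, a methyltransferase that modifies a core subunit of complex I, differed by 0.26 (SE 0.11, adjusted p = 0.461, exact permutation p = 0.026). It ranged from 0.12 with no background correction to 0.40 with the authors' processed table, and without INT mouse 3, the lowest for this gene, it was 0.17 and no longer nominal. Cox7a2l, counted here among the genes that are not subunits, differed by 0.25 (SE 0.13, adjusted p = 0.56), and by 0.14 without INT mouse 3. Ndufs5-ps, named as a pseudogene, differed by -0.15 (SE 0.09), and its signal cannot be told apart from that of the parent gene.

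A wider list of assembly factors held 28 tested genes, 6 of them already among the 93. Of these, 18 had positive and 10 negative differences (15 and 13 with median scaling), with a median of 0.05. Before adjustment 4 of the 28 met 0.05 with higher levels in TOL mice (3.89% of all genes did). With lower levels 2 of the 28 did (4.53% of all genes did), and after adjustment 0 passed. Sdhaf1 and Ndufaf4, already counted as nominal above, are among them. The smallest p was that of Surf1, needed to build complex IV, at 0.29 (SE 0.10, adjusted p = 0.31). Cox10, which makes the heme of complex IV, was at -0.26 (SE 0.10, adjusted p = 0.369). Surf1 and Cox10 thus had opposite signs, but neither passed the adjusted threshold and the difference between them was not tested.

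The pathways that feed the complexes and draw on them were counted in the same way. Of 17 citrate cycle and pyruvate dehydrogenase genes, 9 had positive and 8 negative differences, with a median of 0.01. Before adjustment 3 of the 17 met 0.05 with higher levels in TOL mice (3.89% of all genes did). With lower levels 0 of the 17 did (4.53% of all genes did). Pdhb, the beta subunit of the pyruvate dehydrogenase component that opens the reaction, was at 0.37 (SE 0.10, adjusted p = 0.147), while Pdha1, its alpha partner, was at -0.19 (SE 0.10). Of 11 electron carriers and transporters of ATP and phosphate, 6 had positive and 5 negative differences, with a median of 0.09. Before adjustment 2 of the 11 met 0.05 with higher and 0 with lower levels in TOL mice. In both lists the share with higher levels was above that of all genes, but it rests on few genes and was not tested. After adjustment 0 genes of either list passed. Vdac2, a channel of the outer membrane, was at 0.35 (SE 0.11, adjusted p = 0.249), and Slc25a3, the phosphate carrier that supplies complex V, was at 0.46 (SE 0.18, adjusted p = 0.377).

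Regulators of these genes gave no difference that met 0.05 before adjustment. Of all genes, 3.89% met it with higher and 4.53% with lower levels in TOL mice, so this count says little. Of 16 tested, 12 had negative and 4 positive differences, under both scalings, with a median of -0.06. Ppargc1a, the coactivator that drives mitochondrial gene programmes in muscle, was at 6.52, 6.82 and 7.41 in INT mice and at 6.11, 6.49 and 8.34 in TOL mice. The highest value of the 12 was that of TOL mouse 11, and the difference was -0.19 (SE 0.29). Nrf1 was at -0.15 (SE 0.10), Esrra at -0.05 (SE 0.08) and Tfam, which packages and transcribes mitochondrial DNA, at 0.04 (SE 0.11).

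These regulators are known for short motifs in the promoters of nuclear OXPHOS genes, and the promoters are shown so that the shared control region of the complexes can be read. RefSeq promoters (GRCm38.p6, 250 bases before to 50 after the start) were matched for 60 of the 72 nuclear subunit genes, with 65 starts. The NRF1 palindrome GCGCATGCGC, searched on both strands, was in 7.69% of them and in 0.971% of all 32851 promoters of the same length. Its shorter form GCATGCGC, which the palindrome contains, was in 15.4% and 2.71%. The ETS motif CCGGAAG, which GABP binds, was in 24.6% and 8.86%, the ERR motif AAGGTCA in 10.8% and 4.72%, and the YY1 motif AAGATGGCG in 10.8% and 1.40%. TATAAA was in 12.3% and 13.6%. The promoters had a median GC content of 58.3%, against 52.7%, and the shares were not corrected for it.

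The promoters of Atp5k, Ndufs3 and Ndufs4, genes of complex V and complex I, give examples of these motifs, and only that of Atp5k holds several kinds. They are printed 5′ to 3′ along the gene, in lower case with the matched motifs in capitals, and positions count from 1 at the first base printed. The promoter of Atp5k (chr5:108434350-108434649, minus strand), a subunit that helps ATP synthase form dimers, holds the NRF1 palindrome at base 201, an ETS motif at base 263 and an ERR motif at base 274. That of Ndufs3 (chr2:90904672-90904971, minus strand) holds ETS motifs in both orientations, at bases 224 and 252. That of Ndufs4 (chr13:114388045-114388344, minus strand) holds the YY1 motif at base 286, after the start.
Atp5k: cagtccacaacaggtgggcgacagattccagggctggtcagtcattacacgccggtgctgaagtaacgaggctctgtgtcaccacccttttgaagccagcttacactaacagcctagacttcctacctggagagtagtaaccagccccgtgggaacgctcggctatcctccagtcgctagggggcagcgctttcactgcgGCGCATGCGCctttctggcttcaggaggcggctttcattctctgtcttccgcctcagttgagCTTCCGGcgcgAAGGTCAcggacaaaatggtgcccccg
Ndufs3: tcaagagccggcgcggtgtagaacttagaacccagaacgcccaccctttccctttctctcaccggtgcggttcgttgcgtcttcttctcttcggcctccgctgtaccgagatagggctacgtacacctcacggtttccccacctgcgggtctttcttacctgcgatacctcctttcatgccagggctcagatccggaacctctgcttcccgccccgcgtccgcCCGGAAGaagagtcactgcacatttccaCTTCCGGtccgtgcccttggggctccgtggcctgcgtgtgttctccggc
Ndufs4: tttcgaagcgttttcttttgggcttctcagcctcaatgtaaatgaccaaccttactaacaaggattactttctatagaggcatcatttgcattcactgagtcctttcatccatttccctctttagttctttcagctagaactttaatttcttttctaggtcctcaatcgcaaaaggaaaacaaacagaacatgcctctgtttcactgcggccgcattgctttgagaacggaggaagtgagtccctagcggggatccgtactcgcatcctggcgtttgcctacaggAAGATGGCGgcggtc

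The genes behind these promoters differed by -0.12 (SE 0.11) for Atp5k, 0.17 for Ndufs3 and 0.17 for Ndufs4. None passed the adjusted threshold, and a motif match is a match of letters that says nothing of binding in this muscle.

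Different probes of a gene did not always point the same way. Of 29 members with more than 1 tested probe, 12 had probes of opposite sign. For Atp5j, a coupling subunit of complex V, the probes ran from -0.08 to 0.17, and for Ndufb6 of complex I from -0.14 to 0.07. The 2 probes of Sdhaf3, a complex II assembly factor, differed by -0.0046 and 0.22. For Ndufb10, Sdhaf1 and Ndufaf4 all tested probes had the same sign.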

How the data were processed

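The members and the gene lists were chosen with earlier results of these data known. Groups came from the sample titles and source names, since the descriptions call every sample heat intolerant. The authors scanned the arrays and read them with GenomeStudio. They deposited the mean intensity of each of 45281 probes, linear and neither background subtracted nor normalized, with a detection p-value for each probe as deposited. The authors' value table, a background-subtracted and quantile-normalized intensity made by a program not given in the sources, served as an alternative. Median signal per array was 71.5 to 74.0, and 15179 to 17017 probes were detected.

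In R 4.3.3 with limma 3.58.1, neqc (offset of 16) turned the deposited intensity into log2 values. The 15570 probes that 6 or more arrays detected (p under 0.05) were tested by lmFit and eBayes with a trend. Symbols came from the platform annotation (34885 probes with 1 symbol, 18 with several, 10378 with none), and the symbols of all members were the same in the gene table. The rule for named genes took the smallest p per complex, the extreme differences, core, isoform and mitochondrial genes, the most variable genes and those with discordant probes (45 genes). Ndufaf7, Atp5k, Ndufs4, Cox7a2l, Ndufs5-ps, Ndufb3, Cox6c, Cox7b and the list genes were added once values had been seen. Scripts were first tested on simulated data. The number of mice limits the precision.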

Additional observations from a re-analysis of the deposited data

Results flagged for a closer look

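Of 106 gene and group combinations examined, 6 held a mouse far from its group (Dixon's test at 95%). Chance gives about 5.3 for genes chosen without regard to their values. Some of the genes examined were chosen for a wide spread or a large difference, or after their values had been seen. The count of 6 therefore cannot be weighed against that number. ND6 in TOL mouse 9 was 7.66, with the other TOL mice at 5.47 to 6.24. Cox6a2 in TOL mouse 5 was 13.05, with the others at 13.32 to 13.47. Ndufb11 in TOL mouse 3 was 4.72, with the others at 4.92 to 4.94. Cox7a2 in INT mouse 5 was 5.33, with the others at 5.12 to 5.19. INT mouse 3 was low for Cox7a2l (8.19, others 8.76 to 9.02) and for Ndufaf7 (5.03, others 5.47 to 5.63).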

How the results depend on the processing

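The count of OXPHOS genes at an adjusted p under 0.05 stayed at 0 under all 11 alternatives that kept every mouse, and ran from 0 to 1 when 1 mouse was left out (1 without TOL mouse 9, where ND6 was -1.07). Before adjustment 5 genes with higher levels in TOL mice were under 0.05, and 8 with no filter on dim probes, when 100 genes were tested. With 1 mouse left out they numbered 2 to 7, with 2 without TOL mouse 4 and 3 without TOL mouse 9. Genes lower in TOL numbered 2 to 3. Median scaling changed the sign of 7 of the 53 named genes. ND5 ranged from 0.50 with no background correction to 1.48 with an RMA-type one, and ND6 from -0.98 with the authors' value table to -0.46 with no background correction. Cox4i2 was 0.33 with the RMA-type background, and with the mean of all tested probes Ndufb6 was -0.04 and Sdhaf3 0.11. Nothing in the labels says that the mouse numbers pair the mice. Same-numbered mice correlated between -0.0072 and 0.15, and no mouse was closest to its own number. Such correlations cannot show whether mice with the same number shared any handling, which was not tested. With the number as a replicate block, 0 genes passed the adjusted threshold, 6 were higher and 3 lower at the unadjusted one. The chip that each array sat on was not analysed here.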
